A study of Mus musculus with 12 samples.

Results

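Pattern recognition genes were followed in cerebral vessels isolated from mice given lipopolysaccharide (LPS), a bacterial cell wall component that Toll-like receptor 4 detects. The group comprised 10 genes of the 54119 with summed counts. They were 3 Toll-like receptors other than TLR4 (Tlr2, Tlr3, Tlr7), 3 RIG-I-like receptors (Ddx58, Ifih1, Dhx58) and the related helicase Ddx60, together with 2 adaptors (Mavs, Tmem173) and the DNA exonuclease Trex1. The members were chosen by name, for their role in nucleic acid sensing or as other Toll-like receptors, with earlier results of these data known. All 10 passed the filter on low counts that left 19150 genes for testing.

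Wild type C57BL6 mice received phosphate buffered saline (PBS) or LPS at 10 mg/kg into the peritoneum, and vessels were taken 15 min, 30 min or 4 h after LPS. Each of the 4 groups had 3 RNA-seq libraries, and each library pooled 2 mice, 1 male and 1 female, so single animals and sexes could not be separated. The 12 libraries held 18309177 to 25882028 assigned fragments. The edgeR scaling for composition (TMM) averaged 1.17 in PBS, 1.15 and 1.04 in the early groups and 0.717 at 4 h. All 6 endothelial markers listed (Cdh5, Cldn5, Pecam1, Slc2a1, Kdr, Ocln) were detected, with a summed level of 6880 to 7130 CPM (counts scaled to a fixed library total) in PBS, 8310 to 8360 CPM at 30 min and 4220 to 4270 CPM at 4 h. They did not move together: from PBS to 4 h the mean went from 2730 to 1320 CPM for Slc2a1 and from 2360 to 475 CPM for Cldn5, but from 486 to 1890 CPM for Cdh5. At 30 min Slc2a1 stood above PBS, at 5510 CPM, and Ocln near it (237 against 232 CPM). Cldn5 (1270 CPM), Cdh5 (401 CPM), Pecam1 (727 against 821 CPM) and Kdr (176 against 352 CPM) stood below PBS at that time. Whole vessel RNA was sequenced, so for any gene fewer cells of a type and less RNA per cell cannot be told apart. Differences were tested with edgeR's quasi-likelihood fit over all 12 libraries against a fold limit of 1.5, with Benjamini-Hochberg adjustment over the 19150 genes. A gene was called higher or lower where the adjusted p was below 0.05.

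Toll-like receptors are membrane proteins. Those at the cell surface, such as TLR2, bind microbial lipids and lipoproteins, and those in endosomes bind nucleic acids. RIG-I (Ddx58) and MDA5 (Ifih1) bind double-stranded RNA in the cytosol and signal through MAVS on the mitochondrial surface, whereas cytosolic DNA is sensed by cGAS, whose cyclic dinucleotide product activates STING (Tmem173). These routes lead to interferon regulatory factors and NF-kappa-B, and many of the sensor genes are themselves known interferon-stimulated genes.

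At 15 min none of the 10 genes was called higher, where the background over all tested genes was 3.31%, and 1 (Ddx60) was called lower, where it was 0.872%. At 30 min 2 genes (Tlr2, Trex1) were called higher against a background of 3.78%, and Ddx60 was again called lower against 0.799%. At 4 h 9 of 10 were called higher against a background of 19.0%, and none was called lower against 13.8%. Mavs was the gene not called at 4 h. With total counts as the only scaling, which shifts the median of all genes by -0.712 on the log2 scale at 4 h, 8 of the 10 were called higher and 1 lower, and 18.2% of all called genes were higher in place of 58%. Relative to PBS the 10 genes had a median log2 fold change of -0.28 at the first time, -0.09 at the second and 3.78 at the third, beside 0, -0.01 and -0.01 over all tested genes.

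**Figure D1:**
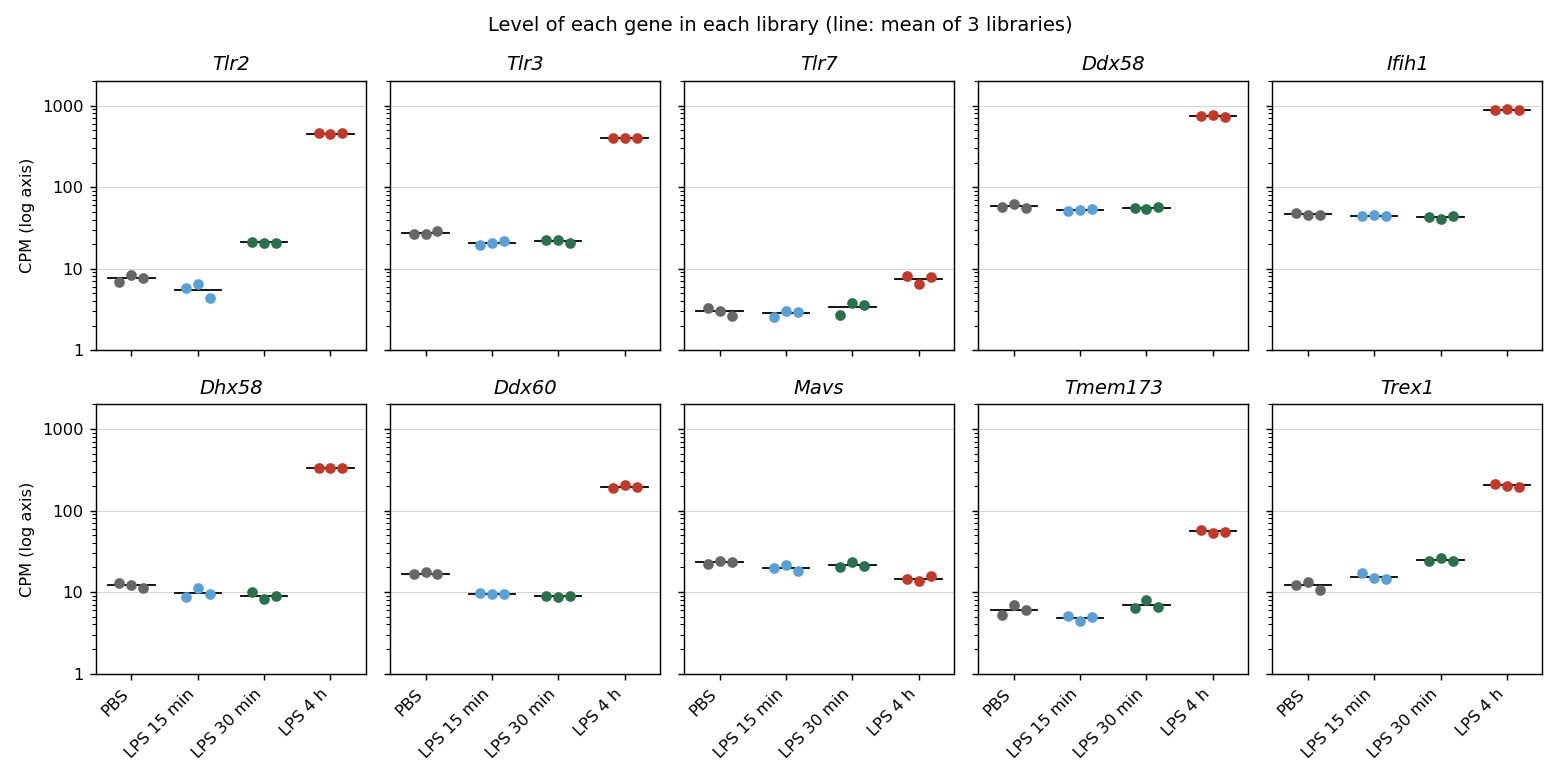
Level of each gene in each library in CPM on a log axis, with 3 points per group and a line at their mean. In every panel but that of Mavs the 4 h points lie above those of the other groups, from a mean of 7.42 CPM for Tlr7 to 891 CPM for Ifih1.

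The upstream sequences of these genes were examined next, since 9 of the 10 moved together at 4 h. The RefSeq promoter table for GRCm38.p6 held 7 of the members, and Tlr7, Dhx58 and Tmem173 had no entry. The 250 bases before each RefSeq start were searched on both strands for the interferon-stimulated response element core GAAANNGAA, the gamma-activated site TTCNNNGAA, the NF-kappa-B consensus and the AP-1 site TGANTCA. Over the 32841 promoters of the table, 7.13% held the first, 7.02% the second, 3.9% the third and 6.75% the fourth. The windows of a gene called at 30 min, of both genes with an interferon element core and of the gene that did not rise are printed here, only where no annotated exon covers them, with motif matches in capitals.
Tlr2 promoter, chr3:83841768-83841858, minus strand: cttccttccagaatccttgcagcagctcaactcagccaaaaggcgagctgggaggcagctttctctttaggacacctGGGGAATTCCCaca
Ddx60 promoter, chr8:61928029-61928086, plus strand: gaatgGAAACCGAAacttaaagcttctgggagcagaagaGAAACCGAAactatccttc
Ifih1 promoter, chr2:62646256-62646505, minus strand: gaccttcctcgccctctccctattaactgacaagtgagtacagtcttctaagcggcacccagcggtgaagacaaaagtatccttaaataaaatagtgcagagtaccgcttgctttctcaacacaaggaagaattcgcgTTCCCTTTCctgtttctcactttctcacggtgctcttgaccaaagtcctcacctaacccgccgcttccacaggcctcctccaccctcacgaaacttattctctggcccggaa
Mavs promoter, chr2:131233813-131234062, plus strand: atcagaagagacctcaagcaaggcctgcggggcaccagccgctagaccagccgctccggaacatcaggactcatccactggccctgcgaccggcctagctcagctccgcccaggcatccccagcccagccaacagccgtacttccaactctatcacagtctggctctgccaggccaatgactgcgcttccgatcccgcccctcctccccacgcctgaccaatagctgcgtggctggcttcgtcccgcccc

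The Tlr2 window held overlapping NF-kappa-B consensus matches from 173 to 163 bases before the RefSeq start. Ddx60 had a pair of GAAANNGAA matches, at 53 to 45 and at 19 to 11 bases before its start. Ifih1 had 1 match on the opposite strand, at 112 to 104 bases before its start. Tlr3 held an NF-kappa-B consensus match, which lies in an annotated exon and is not printed. The windows of Ddx58, Mavs and both starts of Trex1 held none of the 4 motifs, which says only that these letters are not in these windows. A match is a description of the sequence, and binding was not measured.

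Tlr2 encodes the receptor for bacterial lipoproteins, which pairs with TLR1 or TLR6. The gene (ENSMUSG00000027995, chr3:83836272-83841767, minus strand) was at 6.86, 8.4 and 7.67 CPM in the PBS libraries and at 5.7, 6.46 and 4.38 CPM at 15 min. At 30 min the level was 21.4, 20.6 and 20.8 CPM, and at 4 h it reached 456, 449 and 455 CPM. All 30 min libraries thus lay above all PBS libraries, and all 4 h libraries far above both. The mean rose from 7.64 ± 0.773 CPM (SD, n = 3) in PBS to 21 ± 0.412 CPM at 30 min, a log2 fold change of 1.45 (SE 0.0789, edgeR adjusted p = 1.46e-09). At 4 h the log2 fold change was 5.89 (SE 0.0607, edgeR adjusted p = 2.44e-27), or 59.1-fold, the largest of the 10 genes. The 15 min value of -0.48 was not called (edgeR adjusted p = 1).

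Neutrophil markers moved in the same direction at 4 h. The summed level of the 6 listed genes (S100a8, S100a9, Ly6g, Retnlg, Mmp8, Csf3r) was 4.68 to 6.37 CPM in PBS, 5.81 to 7.71 CPM at 30 min and 196 to 204 CPM at 4 h. Ly6g, the defining surface marker, was at 0 in all PBS and 15 min libraries and at a mean of 0.297 CPM at 4 h. The 4 monocyte markers (Ly6c2, Ccr2, Chil3, Vcan) went from 42.7 to 52.3 CPM in PBS to 151 to 162 CPM at 4 h. The 5 perivascular macrophage markers went from 102 to 106 CPM to 161 to 169 CPM. Of these Mrc1 (48.7 to 91.1 CPM), Pf4 (13 to 24.7 CPM) and Lyve1 (6.62 to 12.8 CPM) rose. Cd163 (17.4 to 17.2 CPM) and Cbr2 (17.7 to 19.7 CPM) stayed near PBS. The part of these cells in the Tlr2 result, and in those of the other genes at 4 h, was not tested. Microglial markers went the other way, with 8 genes summing to 150 to 153 CPM in PBS and 96.7 to 101 CPM at 4 h. The 3 erythrocyte markers went from 1480 to 1600 CPM in PBS to 4440 to 4650 CPM at 4 h.

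Tlr3 and Tlr7 encode endosomal receptors, for double-stranded and single-stranded RNA respectively. Tlr3 (ENSMUSG00000031639, chr8:45395665-45411080, minus strand) was at 26.5, 26.9 and 29.1 CPM in PBS, at 19.7, 20.6 and 21.9 CPM at 15 min and at 22.4, 22.4 and 20.8 CPM at 30 min. At 4 h it was at 403, 404 and 403 CPM. The early libraries all lay below PBS, yet the log2 fold changes of -0.41 at 15 min and -0.33 at 30 min were within the 1.5-fold limit and were not called. At 4 h Tlr3 rose 14.7-fold (log2 fold change 3.87, SE 0.0418, edgeR adjusted p = 1.14e-26). The antisense gene Gm45542 overlaps it, and its mean of 0.217 CPM at 4 h was too low to be tested.

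Tlr7 (ENSMUSG00000044583, chrX:167304929-167330558, minus strand) was the least abundant gene. Its PBS libraries had 3.33, 3.04 and 2.6 CPM, and the 4 h libraries 8.02, 6.46 and 7.79 CPM, from 97 to 114 fragments each. The groups did not overlap. The log2 fold change of 1.31 (SE 0.179, edgeR adjusted p = 0.000225) was the smallest rise among the 9 genes called, and it was lost with total counts as the only scaling (0.60, edgeR adjusted p = 0.331). At 15 and 30 min Tlr7 was at 2.85 ± 0.235 and 3.38 ± 0.608 CPM (SD, n = 3), overlapping PBS.

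The RIG-I-like receptors changed at 4 h without an early call. Ddx58 (ENSMUSG00000040296, chr4:40203773-40239828, minus strand), which encodes RIG-I, was at 56.5, 61.8 and 55.7 CPM in PBS and at 751, 760 and 732 CPM at 4 h. Ifih1 (ENSMUSG00000026896, chr2:62595798-62646255, minus strand), which encodes the long double-stranded RNA sensor MDA5, went from 48.4, 45 and 45.8 CPM to 875, 911 and 886 CPM. Dhx58 (ENSMUSG00000017830, chr11:100694884-100704271, minus strand), which encodes LGP2, a receptor of the same family without signalling domains, went from 12.8, 12.1 and 11.3 CPM to 333, 329 and 331 CPM. No 4 h library of these genes came near a PBS library.

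The rises were 12.9-fold for Ddx58 (log2 fold change 3.69, SE 0.0362), 19.2-fold for Ifih1 (4.26, SE 0.033) and 27.4-fold for Dhx58 (4.78, SE 0.0594). The edgeR adjusted p was 1.96e-27 for Ddx58, 1.97e-29 for Ifih1 and 1.2e-25 for Dhx58. Ifih1 had the highest CPM of the 10 genes at 4 h, 891 ± 18.8 (SD, n = 3). At the early times Ddx58 stood at 51.8 ± 1.21 and 55.2 ± 1.78 CPM (SD, n = 3), and Ifih1 at 44.6 ± 0.183 and 42.6 ± 1.52 CPM. Dhx58 was at 9.78 ± 1.33 CPM at 15 min and 9.01 ± 0.872 CPM at 30 min, a log2 fold change of -0.32 and -0.42, and neither was called. The antisense gene Dhx58os overlaps Dhx58, and the library kit does not mark strand, so their shared reads cannot be told apart. Dhx58os went from 6.15 ± 0.532 to 14.4 ± 0.711 CPM (SD, n = 3), a smaller rise (log2 fold change 1.23, SE 0.14, edgeR adjusted p = 5.52e-05).

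Ddx60, a helicase described as a cofactor of RIG-I-like receptors, was the gene that fell early. It (ENSMUSG00000037921, chr8:61928087-62038244, plus strand) was at 16.5, 17.5 and 16.4 CPM in PBS, at 9.63, 9.52 and 9.4 CPM at 15 min and at 9.02, 8.69 and 9.03 CPM at 30 min. At 4 h it was at 190, 204 and 192 CPM. The early libraries did not overlap PBS, and those at 15 and 30 min did not overlap each other, although the latter pair of groups differed by only 0.09 on the log2 scale (edgeR adjusted p = 1). The log2 fold change was -0.82 at 15 min (SE 0.0629, edgeR adjusted p = 0.00379) and -0.92 at 30 min (SE 0.0656, edgeR adjusted p = 0.000175). At 4 h it was 3.54 (SE 0.0491, edgeR adjusted p = 1.83e-24), or 11.6-fold.

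In 3 limma settings on the deposited gene table the early falls of Ddx60 were as large, with log2 fold changes of -0.89 to -0.92 at 15 min and -0.92 to -0.95 at 30 min. They were not called there, with limma adjusted p from 0.134 to 0.201 at 15 min and from 0.0662 to 0.102 at 30 min. Summed markers of several cell types were also lower at these times, and those of others were higher. The 4 T cell genes (Cd3e, Cd3g, Cd4, Cd8a) summed to 4.45 to 4.89 CPM in PBS, 2.78 to 3.23 CPM at 15 min and 2.99 to 3.53 CPM at 30 min. The 4 fibroblast markers (Dcn and Lum among them) summed to 265 to 286 CPM in PBS, 199 to 209 CPM at 15 min and 231 to 234 CPM at 30 min. The 4 smooth muscle markers (Acta2, Myh11, Tagln, Cnn1) summed to 2350 to 2380, 1490 to 1510 and 2110 to 2160 CPM in the same order. They disagreed at 30 min, where Acta2 (888 against 1020 CPM in PBS) and Myh11 (509 against 662 CPM) were lower. Tagln (697 against 641 CPM) and Cnn1 (48.3 against 40.4 CPM) were higher then. Astrocyte and microglial sums were lower at 15 min as well, at 409 to 443 CPM against 551 to 568 CPM and at 137 to 140 CPM against 150 to 153 CPM. Neuron markers were higher at 15 min, at 453 to 463 CPM against 286 to 296 CPM in PBS. Monocyte markers were higher then too, at 66.8 to 73 CPM against 42.7 to 52.3 CPM. The pericyte, endothelial and erythrocyte sums at 15 min also lay above PBS, but the pericyte and endothelial genes disagreed. Among endothelial genes Slc2a1 was higher (4450 against 2730 CPM in PBS) and Ocln near PBS (233 against 232 CPM). Cldn5 (1420 against 2360 CPM), Kdr (204 against 352 CPM), Pecam1 (659 against 821 CPM) and Cdh5 (414 against 486 CPM) were lower. In the pericyte list Rgs5, Kcnj8 and Abcc9 were higher, and Pdgfrb and Anpep were lower. Perivascular macrophage markers were higher at 30 min, at 127 to 132 CPM against 102 to 106 CPM. The part of any of these cell types in the Ddx60 result was not tested.

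**Figure D2:**
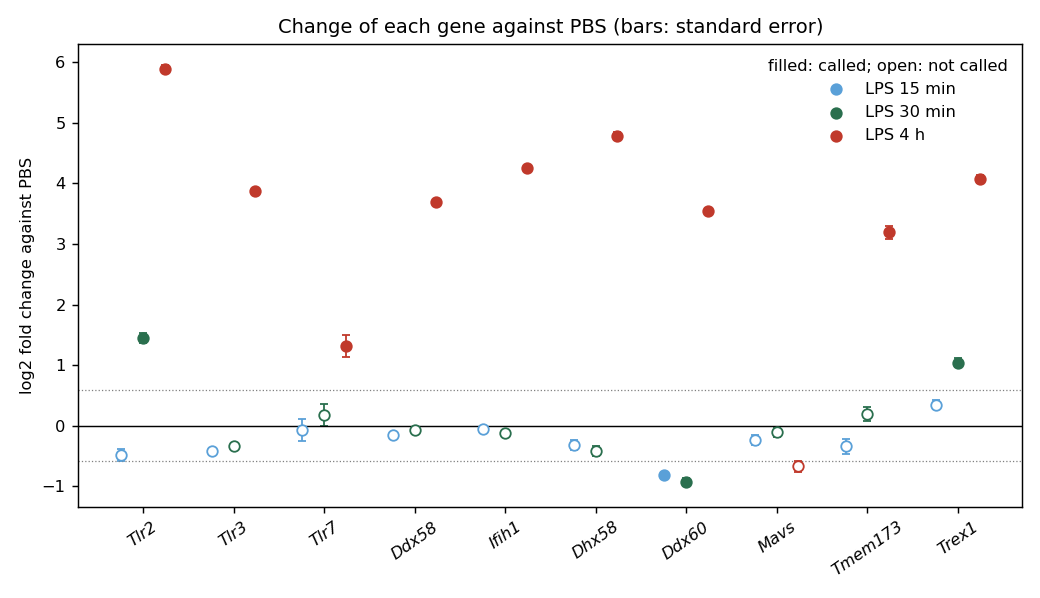
Change of each gene against PBS on the log2 scale at the 3 times after LPS, with bars for the standard error, dotted lines at the 1.5-fold limit, filled points for called changes and open points for the others. Tlr2 (1.45) and Trex1 (1.04) are filled above 0 at 30 min, Ddx60 is filled below 0 at both early times, and Mavs is the open point at 4 h.

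Mavs, which encodes the mitochondrial adaptor shared by RIG-I and MDA5, did not rise with the receptors that signal through it. The gene (ENSMUSG00000037523, chr2:131234063-131248025, plus strand) was at 21.9, 24.1 and 23.6 CPM in PBS and at 14.5, 13.5 and 15.7 CPM at 4 h. Every 4 h library lay below every PBS library. The log2 fold change of -0.67 (SE 0.0885) was close to the 1.5-fold limit and was not called beyond it (edgeR adjusted p = 0.154), while the edgeR test of any change at all gave an adjusted p of 4.93e-07. With total counts as the only scaling it was -1.38 and was called lower (edgeR adjusted p = 2.89e-09). At 15 and 30 min Mavs was at 19.6 ± 1.56 and 21.6 ± 1.73 CPM (SD, n = 3), not called in either case.

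Tmem173 (ENSMUSG00000024349, on chromosome 18), which encodes the DNA sensing adaptor STING, rose at 4 h. Its libraries had 5.21, 6.95 and 6.07 CPM in PBS and 58.4, 53.6 and 54.5 CPM at 4 h. The groups were far apart, with a 9.1-fold rise (log2 fold change 3.19, SE 0.102, edgeR adjusted p = 4.22e-17). The early levels of 4.81 ± 0.303 CPM at 15 min and 6.95 ± 0.838 CPM at 30 min (SD, n = 3) were not called different from PBS.

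Trex1 encodes the exonuclease that degrades cytosolic DNA, the ligand of cGAS. The gene (ENSMUSG00000049734, chr9:109057933-109059734, minus strand) was at 12.3, 13.2 and 10.7 CPM in PBS, 17.1, 14.8 and 14.4 CPM at 15 min, 24.3, 26.1 and 24.3 CPM at 30 min and 212, 202 and 197 CPM at 4 h. The groups did not overlap at any step of this order. Its log2 fold change was 0.35 at 15 min (not called), 1.04 at 30 min (SE 0.0746, edgeR adjusted p = 1.5e-05) and 4.07 at 4 h, or 16.8-fold (SE 0.0651, edgeR adjusted p = 2.15e-23). Between 15 and 30 min the difference of 0.69 was not called beyond the limit (edgeR adjusted p = 0.334).

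The annotation gives Trex1 a pair of transcripts, Trex1-201 starting at chr9:109059734 and Trex1-202 starting at chr9:109059251. Salmon put Trex1-202 at 16.1, 16.3 and 9.62 TPM (transcript abundance scaled for length and library total) in PBS, 34, 39.1 and 35 TPM at 30 min and 215, 205 and 199 TPM at 4 h. Trex1-201 was at 7.24, 8.31 and 10.6 TPM in PBS, 3.90, 1.58 and 2.60 TPM at 30 min and 3.73, 2.62 and 1.77 TPM at 4 h. Trex1-202 thus made up 60.91% of the gene's TPM in PBS and 98.72% at 4 h, as group means with no test. Trex1 lies inside Atrip, a gene on the same strand with which it shares sequence, so the split of reads rests on Salmon's estimates. Atrip, which encodes a partner of the checkpoint kinase ATR, went from 25.5 ± 1.66 to 31.4 ± 3.24 CPM at 4 h (SD, n = 3, log2 fold change 0.30, not called).

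**Figure D3:**
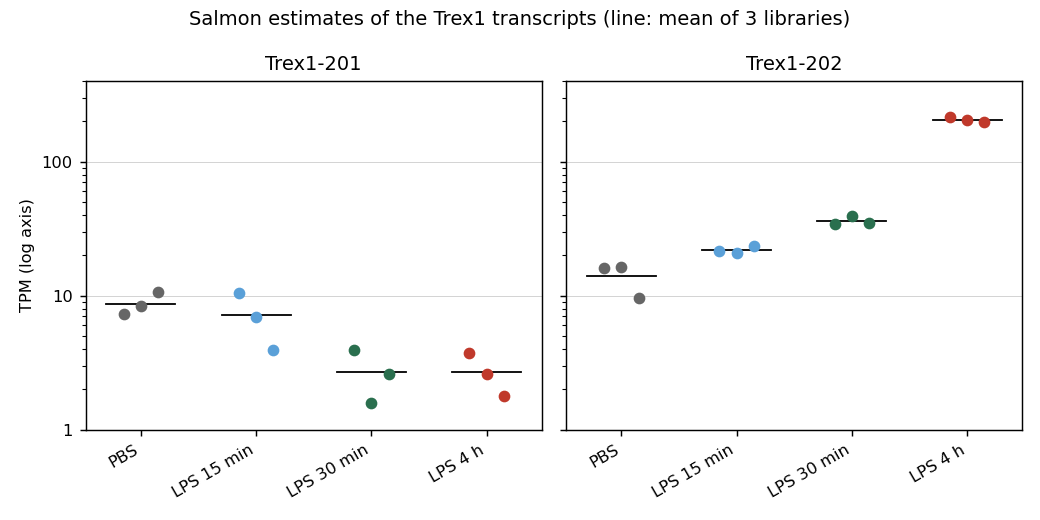
Salmon estimates of the Trex1 transcripts in TPM on a log axis, with 1 point per library and a line at the mean of 3. Trex1-202 climbs from 9.62 to 16.3 TPM in PBS to 199 to 215 TPM at 4 h, while Trex1-201 lies at 1.77 to 3.73 TPM at 4 h.

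Within each gene the groups were placed in order of their mean CPM and neighbours in that order were compared. Over the 10 genes 11 of the 30 neighbouring pairs differed beyond 1.5-fold. The same count was not made over all tested genes, so it has no background beside it. For the 9 genes called at 4 h, the 4 h group was past its nearest neighbour. For Tlr2 the step from PBS to 30 min was past the limit as well, and for Ddx60 the step from 15 min to PBS. No neighbouring pair of Mavs was.

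Direct comparison of the LPS times gave 1 gene higher at 30 min than at 15 min, Tlr2 (log2 difference 1.93, edgeR adjusted p = 3.81e-12), where 2.69% of all genes were called higher, and none lower, where 1.96% were. From 30 min to 4 h 9 of 10 were higher, against 16.9%, and none lower, against 11.8%. The steepest of these was Dhx58, with a log2 difference of 5.20 (edgeR adjusted p = 1.21e-25), followed by Ddx60 with 4.46 (edgeR adjusted p = 1.88e-25), both from levels below their PBS means.

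Without the fold limit, so testing for any change, 1 gene was higher and 7 were lower at 15 min, where 20.4% and 18.2% of all genes were called. At 30 min 2 were higher and 4 lower, beside 19.7% and 17.2%. At 4 h 9 were higher and 1, Mavs, was lower, beside 34.9% and 33.7%. The gene higher at 15 min was Trex1, and the lower ones were Tlr2, Tlr3, Ddx58, Dhx58, Mavs, Tmem173 and Ddx60.

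Levels of different genes were compared per length, in TPM within 1 group. In PBS the highest were Ddx58 (31.4 ± 0.875 TPM, SD, n = 3), Trex1 (22.7 ± 2.25 TPM), Ifih1 (16.2 ± 0.902 TPM) and Tlr3 (14.2 ± 2.2 TPM), and the lowest was Tlr7 (1.63 ± 0.701 TPM). At 4 h Trex1 (209 ± 9.11 TPM), Ddx58 (204 ± 7.15 TPM), Ifih1 (177 ± 0.925 TPM) and Dhx58 (165 ± 6.91 TPM) led, with Tlr2 at 137 ± 2.84 TPM and Tlr3 at 109 ± 4.78 TPM. Trex1 and Ddx58 lay within 1 SD of each other at that time. These gene values sum all annotated transcripts, coding or not, as Salmon split them. The coding transcript Ddx58-201 held 39.03% of its gene's TPM in PBS and 49.2% at 4 h. Ddx58-205, annotated as a processed transcript, held 41.38% and 37.13%. The coding Dhx58-201 held 68.45% at 4 h, and both Trex1 transcripts are annotated as coding. The places of Ddx58 and Dhx58 thus rest in part on transcripts not annotated as coding. Mavs, at 13.4 ± 0.569 TPM in PBS, lay within the spread of Tlr3, and at 4 h only Tlr7 (1.94 ± 0.487 TPM) was below its 4.38 ± 0.352 TPM.

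The neighbouring genes of these pathways were taken from lists of named genes. Of the 10 other Toll-like receptors and chaperones tested, 4 rose at 4 h and 2 fell, where 19.0% of all tested genes were called higher and 13.8% lower. Tlr8 (log2 fold change 2.28), Tlr1 (2.11), Tlr13 (1.45) and Tlr9 (1.41) were higher, at means of 1.34 to 5.2 CPM, while Tlr12 (-1.86) and the chaperone Cnpy3 (-1.07) were lower. Unc93b1, which carries TLR3, TLR7 and TLR9 to endosomes, was at 0.39 and not called. Of 7 TLR4 components and adaptors, Cd14 (8.31), Myd88 (3.48), Tlr4 (2.73) and Tirap (1.41) rose and none fell. Cd14, the LPS co-receptor, was the only gene of the 9 lists called at 30 min (4.16), where 3.78% of all genes were called higher and 0.799% lower. None was called at 15 min, where 3.31% and 0.872% were.

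Among 10 regulators of RIG-I, MDA5 and MAVS, 4 rose and 3 fell at 4 h, beside 19.0% and 13.8% of all genes. Rnf125 (3.98), a ubiquitin ligase that marks RIG-I for degradation, rose beside the RIG-I activators Rnf135 (2.36) and Trim25 (1.86) and the cofactor Zc3hav1 (2.88), and Prkra (-0.95), Tkfc (-0.90) and Nlrx1 (-0.81) fell. Downstream of MAVS and STING 7 of 10 kinases, TRAF proteins and interferon regulatory factors rose and none fell. They included Irf7 (4.73), the kinases Ikbke (3.47) and Tbk1 (2.67) and the TBK1 adaptor Azi2 (2.51), whereas Irf3 (0.05) and Traf3 (0.25) were not called. All 5 cytosolic DNA sensing genes were called, with Zbp1 (6.65), Ifi204 (6.14), Cgas (3.02) and Aim2 (0.78) higher and Enpp1 (-0.98), which hydrolyses the cGAS product, lower.

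At 4 h, with the same shares of all genes called (19.0% higher, 13.8% lower), the remaining lists were as follows. Of 8 enzymes that remove or edit nucleic acids besides Trex1, 2 rose, the dNTP hydrolase Samhd1 (3.63) and the RNA editing enzyme Adar (2.28), and 3 fell, Rnaseh2c (-0.83), Rnaseh2a (-0.80) and Dnase2a (-0.73). Of 9 enzymes activated by double-stranded RNA, 8 rose and none fell, led by the oligoadenylate synthetase family genes Oasl1 (6.51), Oas3 (6.08), Oas1g (4.92) and Oas1a (4.31), with the kinase Eif2ak2 at 4.14. The Oas1 genes and Ifi204 have close copies in the genome, and their values are uncertain to that extent. Of 9 other DExD/H-box helicases, 5 rose and none fell, by less than the RIG-I-like receptors (Ddx21 2.21, Ddx3x 1.22, Dhx15 1.03, Dhx9 0.78, Dhx33 0.72). Of 7 tested genes of type I interferon signalling, 4 rose and none fell, among them Stat2 (2.86), Irf9 (2.04) and Jak1 (1.93). Ifnb1 itself was at 0 in all PBS libraries and at 0.0964 CPM at 4 h, 1 to 2 fragments per library, and was not tested. The list medians at 4 h ran from -0.04 for the nucleic acid removing enzymes to 4.14 for those activated by double-stranded RNA.

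**Figure D4:**
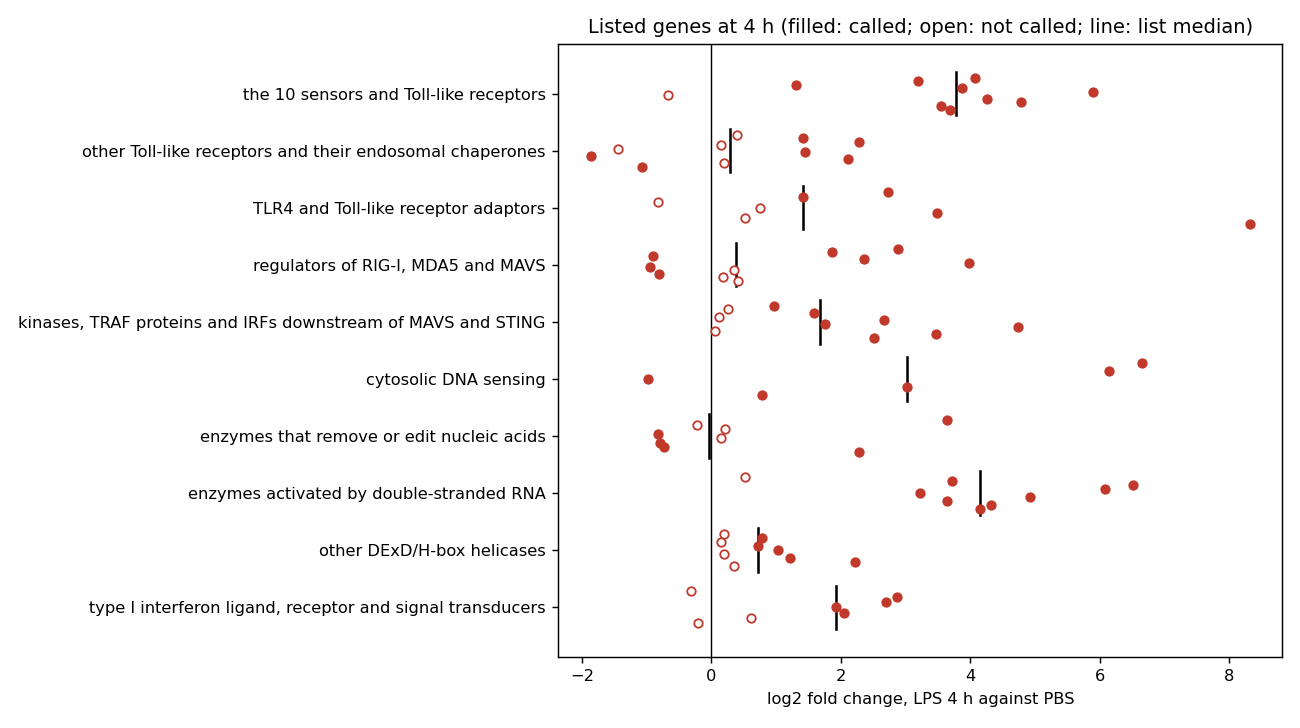
Log2 fold change at 4 h against PBS of the 10 genes (top) and of each listed pathway gene, with filled points for called changes, open points for the others and a line at each list's median. The medians run from -0.04 to 4.14 and that of the 10 genes is 3.78.

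The genes whose pattern was most like that of each member were found by the root mean square difference in log2 CPM, relative to PBS, over the 12 libraries and 16305 genes with a mean of at least 1 CPM. The closest was Rnf213 for Ifih1 (0.0738), Ifi203 for Ddx58 (0.0983), Gbp9 for Tlr3 (0.111) and Lacc1 for Tmem173 (0.118). Fmnl2 was nearest to Trex1 (0.122), Ifi44 to Dhx58 (0.136) and Jak3 to Tlr7 (0.152). Mavs had its nearest match in Tbc1d22a (0.0703), which had a log2 fold change of -0.69 at 4 h. Tlr2 and Ddx60 had the most distant nearest matches, Errfi1 (0.261) and Gm13889 (0.257). The distances were not scaled to a gene's own log2 range over the libraries, which ran from 0.84 for Mavs to 6.68 for Tlr2. The next nearest genes were Eif2ak2 and Daxx for Ifih1, Zup1 and Parp9 for Ddx58, 9930111J21Rik2 and Tnfrsf11a for Tlr3, and Smim3 and H2-Q4 for Tmem173. They were Tiparp and Sbno2 for Trex1, Phf11d and Mlkl for Dhx58, Fth1 and 4930453N24Rik for Tlr7, Dhrs1 and Acbd4 for Mavs, Casp4 and Hcar2 for Tlr2, and Sp110 and Lck for Ddx60.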

How the data were processed

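The members and gene lists were chosen with earlier results of these data known. RNA of cerebral vessels was measured in 12 libraries, made by the authors with a low-input full-length cDNA kit that does not mark strand. The authors ran Salmon 1.2.1 (per the labels' processing notes) on GRCm38.p6 and deposited the estimated counts and TPM per transcript, with a table of gene counts that they normalized with DESeq2, a signal also scaled for transcript length. Here the estimated counts were summed by gene with GENCODE M21, which joined 139852 of 140948 transcripts and left out 0.482 to 0.85% of fragments, and rounded. CPM was the count over the TMM-scaled library size. Genes were filtered with filterByExpr (minimum count 10) and tested in edgeR 4.0.16 with glmQLFit and glmTreat (fold limit 1.5), after tests on simulated data. Standard errors were the log2 fold change over the root of the F statistic. Alternatives were DESeq2 1.42.0, limma 3.58.1 on the gene table with 1 or 10 added before the log2, other scalings and filters, a transcript length offset, no fold limit, a replicate block, and leaving out each library. Named genes were all members, up to 4 called genes of each list with the largest changes at 4 h (up to 3 at each early time), every called gene of a list with 5 or fewer, and the 3 genes most like each member. Tlr9, Cnpy3, Unc93b1, Prkra, Tkfc, Nlrx1, Irf3, Traf3, Eif2ak2 and Ifnb1 were named after their values were seen, as were the genes that overlap a member. Some listed genes are not reported here. Nothing shows whether libraries of a group came from separate litters or days, so p-values measure the spread between these pools. Counting error falls with depth, and replicates differed by 2.5 to 7.07 times the counting variance on average. Libraries of the same replicate number did not deviate together.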

Additional observations from a re-analysis of the deposited data

Results flagged for a closer look

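Effects against PBS that differed between times, by the edgeR test of the difference itself, were as follows. Tlr2 was higher at 30 min than at 15 min by 1.93 on the log2 scale. From 30 min to 4 h the log2 difference was 5.2 for Dhx58, 4.46 for Ddx60, 4.44 for Tlr2, 4.39 for Ifih1, 4.2 for Tlr3, 3.76 for Ddx58, 3.03 for Trex1, 2.99 for Tmem173 and 1.13 for Tlr7. The adjusted p was 0.00282 for Tlr7 and at most 2.39e-16 for the other 8 genes. Groups of 3 libraries are too small for a check of single outlying libraries.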

How the results depend on the processing

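With the fold limit removed, the number of genes called changed from 1 to 8 at 15 min and from 3 to 6 at 30 min. Between 15 and 30 min it changed from 1 to 3. The shares of all tested genes called without the limit were 38.6%, 36.9% and 37.4% in the same order. The neighbouring groups that differed in the order of levels went from 11 to 18, a count not made over all genes. At 15 min limma, run on the gene table in 3 settings, called 0 genes in each. The log2 fold change of Ddx60 there was -0.89 to -0.92, beside -0.82 with edgeR. Other settings left these counts within 1.5 times, and the replicate block gave 1, 3 and 9 genes at the successive times against PBS, as without it. The correlations of same-numbered libraries ran from -0.0489 to 0.0679, so the numbers were not taken as pairs. Leaving out each library in turn changed no call in 600 values of single genes. Among the other settings 518 values of single genes kept their call, 16 gained it and 16 lost it. The 518 include small differences that changed sign and were called in neither setting. Between 15 and 30 min, for example, Ddx58 was at 0.09 and at -0.05 at the lowest, and Tlr3 at 0.08 and -0.06. Apart from the fold limit, the calls gained or lost were those of the early Ddx60 falls, the 4 h rise of Tlr7 and the 4 h level of Mavs. The call of Tlr7 against PBS was lost with library size only, with a transcript length offset (log2 fold change 1.15, edgeR adjusted p = 0.0537) and under the 3 limma settings. Scaling by library size only moved the median of all genes by -0.712 at 4 h. The cause of these differences was not tested. Low counts limit Tlr7 most, with 62 to 114 fragments per library.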
